A study of Homo sapiens with 6 samples.

Results

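The urea transporter genes SLC14A1 and SLC14A2 and the 6 aquaporin genes AQP1, AQP3, AQP4, AQP7, AQP9 and AQP11 were followed in U251 glioblastoma cells with and without CRISPR targeting of NUAK2, a serine/threonine kinase of the AMPK-related family. They make up 8 of the 28395 genes counted, and they were matched by NCBI gene identifier. The 8 genes were chosen by measured values of the same WT and NUAK2-CR libraries described here, so their differences between the groups are given as a description and no p-value is attached to a member. U251 is an established human glioblastoma line, and RNA was sequenced from 3 WT and 3 NUAK2-CR libraries of cells under the same labels apart from the genotype. The NUAK2-CR cells received lentiviral CRISPR vectors carrying a NUAK2 guide together with GFP and mCherry, and cells positive for both colours were sorted singly and grown as clones. The labels name no clone, so differences between clones and differences due to the targeting cannot be told apart here. The labels do not say that libraries came from separate cultures, so the spread between libraries may be technical.

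Urea transporters are channel-like proteins that let urea cross membranes down its gradient. SLC14A1 encodes UT-B, known from red blood cells, where it carries the Kidd blood group antigens, and from kidney vessels and astrocytes, while SLC14A2 encodes the UT-A transporters of the kidney collecting duct. Aquaporins form water pores; AQP3, AQP7 and AQP9 also pass glycerol and, to differing degrees, urea, and are called aquaglyceroporins. In brain, AQP4 is the main water channel of astrocyte endfeet, and AQP1 is found in the choroid plexus and in gliomas.

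The libraries held 29648445 to 55574081 counts, and no pair of replicates agreed within sampling noise. Of 14873 genes that passed the filter on low counts, 8107 (54.5%) had an adjusted p under 0.05 between NUAK2-CR and WT, 3912 of them higher (26.3%) and 4195 lower (28.2%), in edgeR's quasi-likelihood test with Benjamini-Hochberg adjustment. Such genes are referred to as called. NUAK2 itself measured 1926, 1457 and 1580 normalized counts (counts brought to 1 common library size, the mean of the effective ones) in WT, against 798.7, 961.2 and 848.6 in NUAK2-CR. The level in NUAK2-CR was 52.6% of WT (log2 fold change -0.93, SE 0.11, edgeR adjusted p = 1.8e-05), so NUAK2 RNA remained present in every NUAK2-CR library. The authors reported NUAK2 deletion in their U251 clones by immunoblot and qPCR. RNA counts do not measure the protein seen by immunoblot. The qPCR measured RNA, as the counts do, and how its result relates to the RNA remaining here was not tested. Glial identity was checked with 9 astrocyte and glioma markers, all of which passed the filter. Of these, 5 (55.6%, beside 28.2% of all tested genes) were lower in NUAK2-CR, among them GFAP, the astrocyte intermediate filament (log2 fold change -2.56). The receptor EGFR was the 1 called higher. The other 3, SLC1A3, ALDH1L1 and SOX9, were not called, at 119.4%, 190.2% and 91.1% of WT, so the markers did not move together. The summed level of the 9 was 330400 to 366100 normalized counts in WT and 149500 to 157400 in NUAK2-CR. That sum is weighted to abundant markers such as VIM and GFAP (means of 99740 and 88320 in WT), so it does not measure glial identity.

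Among the 8 genes, 4 passed the filter on low counts (SLC14A1, AQP1, AQP3 and AQP11) and 4 did not (SLC14A2, AQP4, AQP7 and AQP9). SLC14A1 was called higher and AQP1 and AQP11 were called lower, beside the 26.3% and 28.2% of all tested genes called in those directions. Because the same contrast chose the genes, nothing is read from these counts. Every one of the 8 had at least 1 count in some library.

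**Figure D1:**
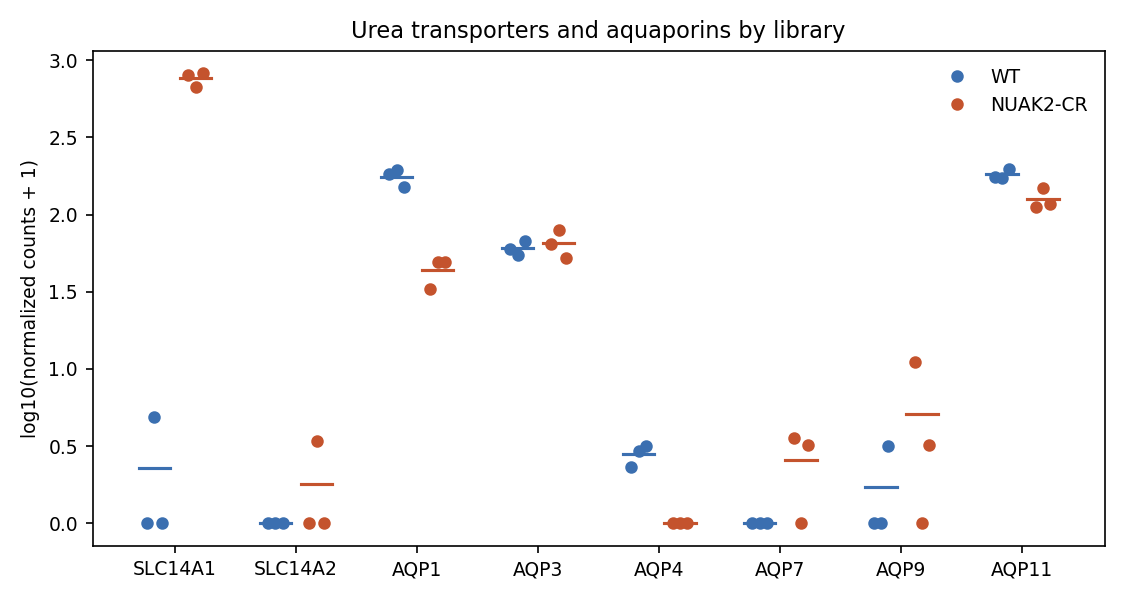
Level of the 8 genes in each library, as log10 of normalized counts plus 1 (vertical axis), with points for the 3 WT and 3 NUAK2-CR libraries and a line at the value of each group's mean. SLC14A1 lies near 0 in WT and at 675.4 to 823.4 normalized counts in NUAK2-CR, AQP1 and AQP11 lie lower in all NUAK2-CR libraries, and AQP3 overlaps between the groups.

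SLC14A1 lies on chromosome 18 at 45724181 to 45752520 (GRCh38, plus strand), and RefSeq lists 2 transcription starts for it. AQP1 lies on chromosome 7 at 30911853 to 30925516 on the plus strand. The sequence before the first SLC14A1 start and before the AQP1 start is shown because these are the genes with the largest difference upward and downward among the 8. The RefSeq windows begin 250 bases before the start, at chr18:45723931-45724126 for SLC14A1, where the last 54 bases are left out because GENCODE annotates them as untranslated exon of other transcripts, and at chr7:30911603-30911852 for AQP1. The SLC14A1 window also lies in an exon of a retained-intron transcript of the gene, and the AQP1 window overlaps no exon of the gene.
SLC14A1: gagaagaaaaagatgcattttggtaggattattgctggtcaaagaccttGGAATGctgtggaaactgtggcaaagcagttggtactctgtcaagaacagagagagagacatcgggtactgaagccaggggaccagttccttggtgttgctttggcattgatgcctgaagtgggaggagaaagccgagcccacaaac
AQP1: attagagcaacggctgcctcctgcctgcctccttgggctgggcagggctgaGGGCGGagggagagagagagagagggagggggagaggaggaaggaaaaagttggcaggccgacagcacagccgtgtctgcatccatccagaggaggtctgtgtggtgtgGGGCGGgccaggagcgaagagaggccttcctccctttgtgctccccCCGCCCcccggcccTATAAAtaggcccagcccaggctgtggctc
Capitals mark matches on either strand to the letters GGAATG for a TEAD motif, TGACTCA for an AP-1 motif, TATAAA for the TATA element, GGGCGG for a GC box and CCAAT for the CAAT element, a set picked after the SLC14A1 window had been seen. The SLC14A1 window holds 1 TEAD match and no match to the other 4, whereas the AQP1 window holds 1 match to the TATA element and 3 GC boxes. The TEAD match is not particular to SLC14A1 among the 8 genes. The overlapping windows before the first and second AQP4 starts and the window before the second AQP9 start also hold 1 each. Of 35116 RefSeq windows of the same 250 bases, 11.9% hold the TEAD letters, 4.2% AP-1, 10.7% the TATA element, 42.6% the GC box and 32% the CAAT element. The window before the second SLC14A1 start holds none of them, and the counts are per gene, so they do not show which start was used. A match is a stretch of letters and not a measured site.

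SLC14A1 went from nearly no reads in WT to a level in NUAK2-CR above that of 47.6% of all tested genes. Its counts in WT were 0, 4 and 0, and in NUAK2-CR 635, 560 and 750. The groups did not overlap, and 2 of the 3 WT libraries had no read of the gene, which at a floor of 3 counts allows up to 1.99 and 3.23 normalized counts in WT replicates 1 and 3. In bulk RNA, more cells with the transcript and more transcript per cell cannot be told apart. Normalized counts averaged 1.29 ± 2.23 in WT against 768 ± 81.0 in NUAK2-CR (SD, n = 3 each), a ratio of 597. On the log2 scale of the fit, with edgeR's default prior count, the difference was 9.23 (SE 0.37, 95% interval 8.42 to 10.04), the largest upward value of the 14873 tested genes. Intervals and ranks of the members take no account of their choice from these same libraries. Under other settings the SLC14A1 difference ran from 7.93 (prior count of 2) to 12.57 (without WT replicate 2).

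The size of that ratio rests on the 4 WT counts, all in WT replicate 2. From the summed counts, 1945 in NUAK2-CR and 4 in WT, the ratio was 668 with an exact 95% interval of 260.5 to 2454, which covers counting error only. Even numbers made up 65.2% to 69.3% of counts from 1 to 10 in each library, so the 2 ends of a read pair often appear to have been counted separately. With counts halved to pairs (973 against 2), the same ratio had an interval of 184.5 to 5527. Without WT replicate 2 the WT group had no count and SLC14A1 was at least 294-fold higher in NUAK2-CR, against a floor of 3 counts per library. Leaving out WT replicate 1 gave 400-fold (399.8) and leaving out WT replicate 3 gave 398-fold (397.7), while leaving out a NUAK2-CR library gave 575.7 to 633.4. SLC14A1 passed the filter on low counts only through the NUAK2-CR libraries.

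SLC14A2, the neighbouring urea transporter gene at 45167963 to 45683688 on chromosome 18, ends 40.5 kb before the SLC14A1 start. It had 0 counts in each WT library and 0, 2 and 0 in NUAK2-CR, at or under the floor of 3 counts in all 6 libraries, so no fold is given. The antisense gene that overlaps it, SLC14A2-AS1, had no count in any library. SLC14A1 and SLC14A2 thus differed in detection in NUAK2-CR, where the former had 560 counts or more in each library and the latter 2 at most.

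SLC14A1 was set against the tested genes around it on chromosome 18. The 20 nearest tested genes, within 3837 kb, had a median log2 fold change of 0.06, with 5 called higher and 3 lower, beside 26.3% and 28.2% of all tested genes. On the right-hand side, EPG5, an autophagy gene 76.4 kb away, measured 0.66 (SE 0.10, edgeR adjusted p = 0.000129) and SIGLEC15, a sialic-acid-binding receptor 101.5 kb away, measured 2.27 (SE 0.55, edgeR adjusted p = 0.00394). SIGLEC15 was low throughout, with 4, 6 and 4 counts in the WT libraries and 22, 11 and 18 in NUAK2-CR. It passed the filter on low counts only through NUAK2-CR. ATP5F1A, an ATP synthase subunit 356.1 kb away, fell slightly (log2 fold change -0.24). On the other side the nearest tested gene, SETBP1, a DNA-binding protein gene at -1044.1 kb, rose by 0.67 (SE 0.12, edgeR adjusted p = 0.000326). Beyond the 20 nearest genes, at -8895.1 to -9426.5 kb on that side, KIAA1328 and TPGS2 fell (log2 fold changes -0.77 and -0.35) and FHOD3, a formin, rose (0.34). SIGLEC15 had the highest value among the 20 nearest.

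**Figure D2:**
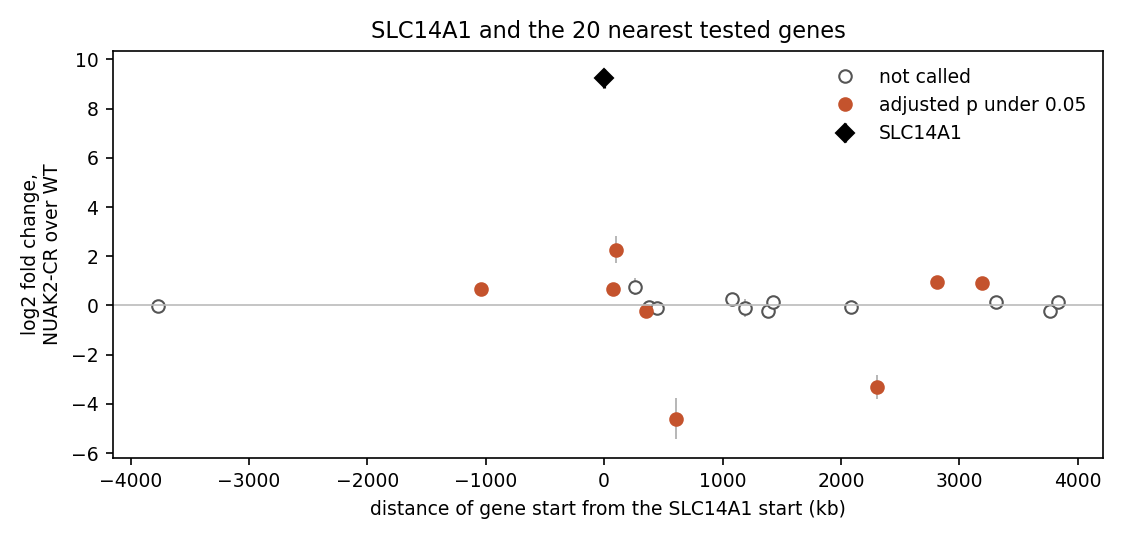
Log2 fold change of NUAK2-CR over WT (vertical axis, bars are 1 SE) for SLC14A1 and its 20 nearest tested genes against the distance between gene starts in kb (horizontal axis), with filled points for called genes. SLC14A1 stands at 9.23, the median of the 20 neighbours is 0.06, and SIGLEC15 at 101.5 kb is the highest of them at 2.27.

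AQP1, the water pore found in choroid plexus and gliomas, was lower in NUAK2-CR. AQP1 was counted 274, 200 and 139 times in WT, against 25, 40 and 44 in NUAK2-CR. Normalized, it measured 182, 193 and 149 in WT and 31.7, 48.2 and 48.3 in NUAK2-CR, so the groups did not overlap. The means were 174.8 ± 22.6 and 42.8 ± 9.54 (SD, n = 3 each), which put NUAK2-CR at 24.5% of WT, or 4.09-fold lower. The log2 fold change was -2.03 (SE 0.23, 95% interval -2.53 to -1.52), the 410th lowest of the tested genes. With any single library left out it lay between -2.13 and -1.84. The 20 tested genes nearest to AQP1 had a median log2 fold change of 0.26, with 11 called higher and 1 lower, beside 26.3% and 28.2% of all tested genes.

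AQP11, an intracellular aquaporin of the endoplasmic reticulum, was lower by a smaller amount. It lies on chromosome 11 at 77589953 to 77610356. AQP11 measured 174.7, 171.7 and 197.8 normalized counts in WT against 110.5, 148.3 and 115.3 in NUAK2-CR. The groups did not overlap, although NUAK2-CR replicate 2 was closer to WT than the others. NUAK2-CR stood at 68.7% of WT, with a log2 fold change of -0.54 (SE 0.18, 95% interval -0.93 to -0.14). AQP11 was called with all 6 libraries but lost the call when WT replicate 3 was left out, and likewise for replicates 1 and 3 of NUAK2-CR, where the log2 fold change was -0.48, -0.44 and -0.48.

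AQP3, the aquaglyceroporin on chromosome 9 at 33441160 to 33447593, gave no difference larger than its spread. It measured 58.5, 54.0 and 66.7 normalized counts in WT against 63.5, 78.4 and 51.6 in NUAK2-CR, so the groups overlapped. The log2 fold change was 0.11 (SE 0.26, 95% interval -0.46 to 0.68), and it turned to -0.05 without NUAK2-CR replicate 2. The interval allows a difference of either sign and does not show that the levels were equal. The AQP7 gene, which lies 38.6 kb from AQP3, was barely counted.

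**Figure D3:**
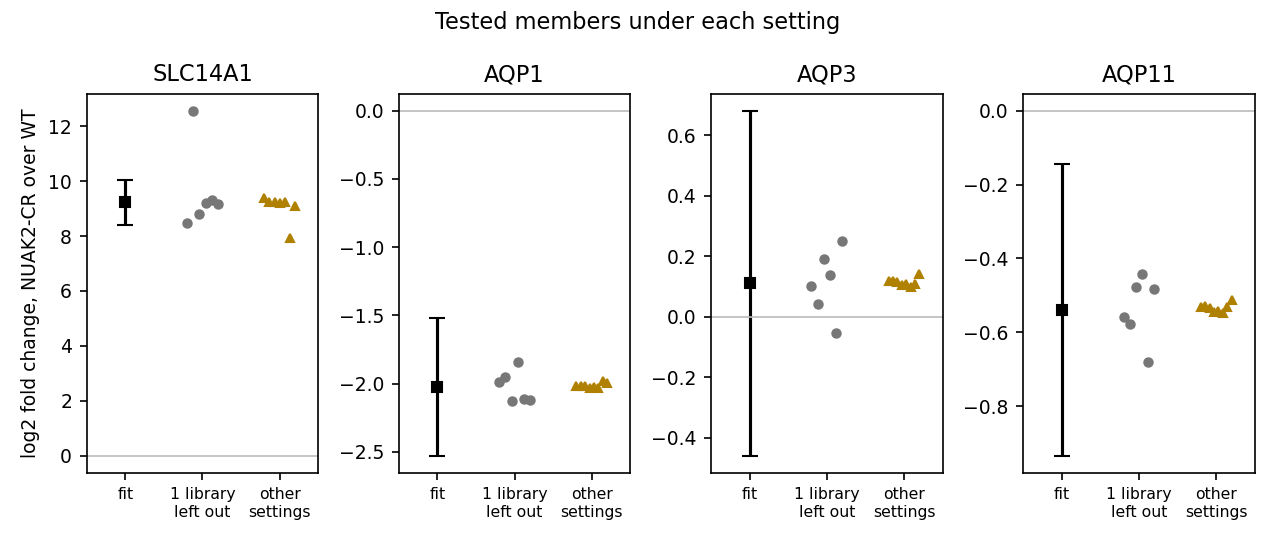
Log2 fold change of NUAK2-CR over WT (vertical axis, a separate scale in each panel) for the 4 tested genes, with the fit and its 95% interval as a square, the 6 fits that leave out 1 library as circles and the other settings as triangles. SLC14A1 stays above 7.9, AQP1 stays between -2.13 and -1.84, and AQP3 lies on both sides of 0. The highest SLC14A1 circle is the fit without WT replicate 2, whose value depends on the prior count.

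The remaining aquaglyceroporins and AQP4 were at the limit of detection. AQP4, the endfoot water channel gene on chromosome 18 at 26852038 to 26865803, had 2 counts in every WT library and 0 in every NUAK2-CR library, all at or under the floor of 3 counts, so no fold is given and a difference was not detectable at this depth. AQP7, the glycerol channel of adipose tissue on chromosome 9 at 33383191 to 33402568, had no count in WT and 2, 0 and 2 in NUAK2-CR. AQP9, the glycerol and urea channel of liver on chromosome 15 at 58138169 to 58185911, had 0, 0 and 2 counts in the WT libraries and 8, 0 and 2 in NUAK2-CR. The AQP9 groups overlapped, and its summed counts (10 against 2) gave a ratio of 6.87 with an exact 95% interval of 1.46 to 64.5, or 0.769 to 325 as read pairs; 8 of the 10 counts came from NUAK2-CR replicate 1. Reads of AQP7 can also be shared with near-identical copies, of which AQP7P3 had 12, 4 and 6 counts in the WT libraries and 15, 5 and 8 in NUAK2-CR, so its level is uncertain. The antisense gene that overlaps AQP4, AQP4-AS1, had no count in any library.

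Per kilobase of transcript, the 8 genes took a different order in the 2 groups. In WT, AQP11 was highest at 2.64 ± 0.207 RPKM (reads per kilobase of the MANE Select transcript per 1000000 counts of the effective library, SD, n = 3), followed by AQP1 at 1.69 ± 0.219 and AQP3 at 0.872 ± 0.0936, and the other 5 were each at or under 0.01. In NUAK2-CR, SLC14A1 was highest at 5.23 ± 0.551 RPKM, followed by AQP11 at 1.81 ± 0.300, AQP3 at 0.942 ± 0.196 and AQP1 at 0.414 ± 0.0924. In each group the neighbours named here lay farther apart than their SDs. AQP9 came next in NUAK2-CR at 0.0385 RPKM, within its SD of AQP7 at 0.0137 ± 0.0120 and of SLC14A2 at 0.0053. With the union of all exons as the length, AQP11, AQP1 and AQP3 in WT and SLC14A1, AQP11, AQP3 and AQP1 in NUAK2-CR kept this order, with SLC14A1 at 2.85 and AQP11 at 1.56 RPKM in NUAK2-CR.

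The other 8 aquaporin genes gave no further call, since none passed the filter on low counts. AQP5 had 16, 2 and 6 counts in the WT libraries and 13, 4 and 5 in NUAK2-CR. AQP2, the vasopressin-regulated channel of the collecting duct, had 6, 12 and 1 in WT and 6, 8 and 6 in NUAK2-CR, and AQP6 had 6, 4 and 9 in WT and 2, 2 and 2. The lens aquaporin MIP had 6, 1 and 2 counts in WT and 0 in NUAK2-CR, AQP8 had 2 counts in WT replicate 1 alone, and AQP10, AQP12A and AQP12B had no count. The lens, kidney and gland aquaporins were thus close to the limit of detection in both groups.

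The genes that anchor AQP4 at the membrane or work beside it were measured although AQP4 was not. Of 11 listed genes, 9 passed the filter, 6 rose and 1 fell, with a median log2 fold change of 0.43 against -0.01 over all tested genes. The higher calls were 66.7% of those tested, beside 26.3% of all tested genes. MLC1, a membrane protein of astrocyte junctions, rose from 282 ± 43.5 to 1707 ± 64.1 normalized counts (log2 fold change 2.61, SE 0.11, edgeR adjusted p = 2.71e-09). The syntrophin SNTB1 rose from 201.5 ± 21.4 to 944 ± 45.0 (log2 fold change 2.23, edgeR adjusted p = 8.44e-09), and utrophin (UTRN), which joins the dystroglycan complex to actin, rose by 0.73. KCNJ10, the Kir4.1 potassium channel found with AQP4 in endfeet, was called lower, with 39.9, 53.1 and 61.3 normalized counts in WT against 0, 4.82 and 0 in NUAK2-CR. KCNJ10 was thus at 0 in 2 of 3 NUAK2-CR libraries, with 172 counts over WT and 4 over NUAK2-CR, and it passed the filter only through WT. With at least 10 counts required in every library it was not tested, and 0 genes of the list were called lower. The dystroglycan gene DAG1 was not called (log2 fold change 0.18).

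Genes of urea, arginine and polyamine metabolism, whose products include the urea that SLC14A1 carries, moved in both directions. Of 21 listed, 16 passed the filter, 4 rose and 10 fell, with a median log2 fold change of -0.45. The lower calls were 62.5% of those tested, beside 28.2% of all tested genes. Among urea cycle enzymes, ASS1, which joins citrulline and aspartate, rose from 996 ± 44.3 to 3193 ± 245 normalized counts (log2 fold change 1.68, SE 0.08, edgeR adjusted p = 5.08e-09). CPS1, which makes carbamoyl phosphate from ammonia, rose from 506 ± 50.4 to 1396 ± 62.1 (log2 fold change 1.47, edgeR adjusted p = 8.35e-08). SLC7A2, an arginine transporter, rose by 1.86. The ornithine aminotransferase OAT fell to 60.5% of WT (log2 fold change -0.73), the ornithine decarboxylase ODC1 to 63.6% (-0.65) and the spermine synthase SMS to 66.0% (-0.60). Other genes of the cycle were named after their values were seen. ASL, the enzyme directly after ASS1, fell to 69.4% of WT (log2 fold change -0.53, edgeR adjusted p = 0.000553), and SLC25A15, the mitochondrial ornithine carrier, fell to 66.6% (edgeR adjusted p = 0.000185). Of the arginases and OTC, which release and use ornithine, ARG2 fell by 0.25 on the log2 scale (edgeR adjusted p = 0.0478, close to the threshold). ARG1 had 4 counts in WT and 2 in NUAK2-CR in total, and OTC had none.

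Genes of glycerol handling, the cargo of AQP3, AQP7 and AQP9, gave 4 lower calls and 1 higher call. Of 12 listed, 9 passed the filter, so 44.4% of those tested fell, beside 28.2% of all tested genes, and the median was -0.34. Glycerol kinase (GK) fell from 332.8, 333.8 and 355.8 normalized counts to 198.1, 229.1 and 234.9 (log2 fold change -0.62, SE 0.13, edgeR adjusted p = 0.00159). The glycerol-3-phosphate dehydrogenases GPD2 and GPD1L fell by 0.34 and 0.32 on the log2 scale, and the triglyceride lipase PNPLA2 rose by 0.40.

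Genes for osmolytes and cell volume were more often called higher than lower. Of 21 listed, 20 passed the filter, 8 rose and 3 fell, with a median of 0.22. The 8 higher calls among 20 stand beside 26.3% of all tested genes. The Na-K-Cl cotransporter SLC12A2 rose from 2126 ± 189.5 to 5353 ± 275.5 normalized counts (log2 fold change 1.33, SE 0.08, edgeR adjusted p = 4.4e-08), the taurine transporter SLC6A6 rose by 0.88 and the K-Cl cotransporter SLC12A4 by 0.65. AKR1B1, the aldose reductase that makes sorbitol, fell to 61.1% of WT (log2 fold change -0.71). The kinase gene OXSR1 and the volume-regulated anion channel subunit LRRC8E fell by 0.25 and 0.35. Without NUAK2-CR replicate 1, 1 gene of the list was called lower in place of 3. NFAT5, the factor of the hypertonic response, and the myo-inositol transporter SLC5A3 were named after their values were seen, and each rose by 0.80.

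**Figure D4:**
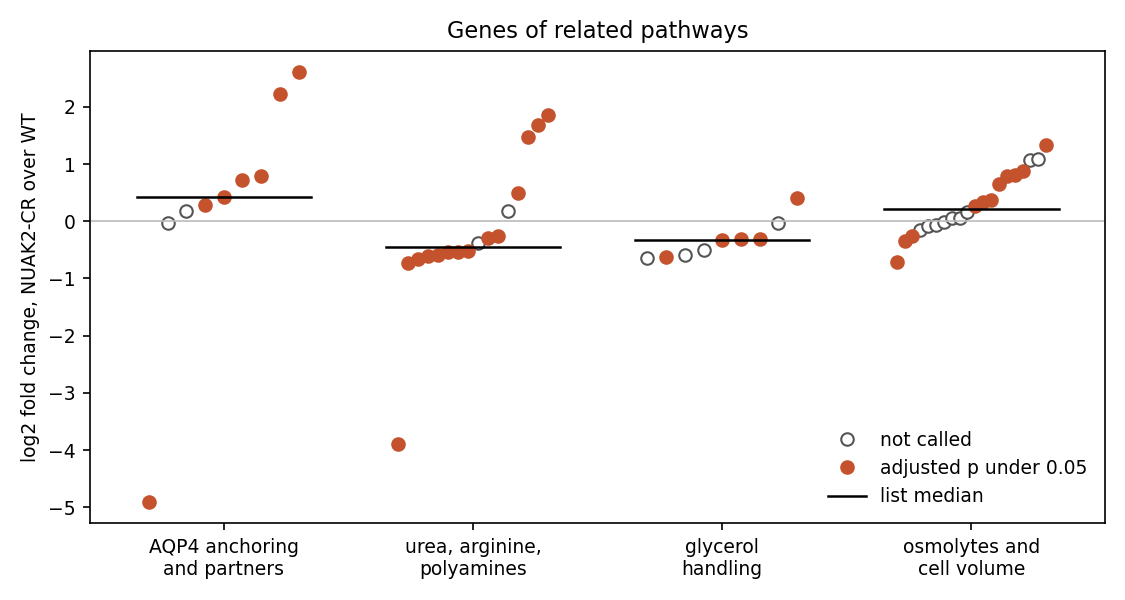
Log2 fold change of NUAK2-CR over WT (vertical axis) for each tested gene of 4 lists (horizontal axis), with filled points for called genes, open points for the others and a line at each list's median. The medians are 0.43, -0.45, -0.34 and 0.22, and the lowest point is KCNJ10 at -4.90, a fitted value that rests on 4 counts in NUAK2-CR.

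Markers of other cell types that carry SLC14A1 or aquaporins were read beside these values. None of the 6 erythroid markers passed the filter, their summed level was 0 to 4.30 normalized counts in WT and 0 to 6.35 in NUAK2-CR, and the globins HBA2 and HBB were at 0 in every library. Of 7 endothelial markers, 5 passed the filter, with PECAM1 and VWF higher and KDR lower, beside the 26.3% and 28.2% of all tested genes called in those directions, and their summed level was 252 to 339 in WT and 188 to 218 in NUAK2-CR. Of 6 neuronal markers, all of which passed the filter, SNAP25, STMN2 and SYT1 were higher (again beside 26.3% of all tested genes) and none was lower, with sums of 1117 to 1127 in WT and 2201 to 2248 in NUAK2-CR. Of 6 microglia and immune markers, 2 passed the filter, CD68 and CSF1R, both lower (beside 28.2% of all tested genes), the sums were 846 to 964 in WT and 239 to 286 in NUAK2-CR, and AIF1 and CX3CR1 were at 0. PECAM1, with 2 counts over WT, and STMN2, with 7, passed the filter only through NUAK2-CR. The part of these markers in the levels of the urea transporters and aquaporins was not tested.

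The tested genes most like SLC14A1 over the 6 libraries, by the mean absolute difference in log2(CPM + 0.1) after centring each gene, were ACTG2 (0.415), KCNC1 (0.662), LINC00968 (0.860), NOG (0.889) and ADAMTS18 (0.914). ACTG2, the smooth muscle gamma actin, had 48, 28 and 31 counts in the WT libraries and 3215, 3715 and 4078 in NUAK2-CR. Unlike SLC14A1, ACTG2 was counted in every WT library. NOG, the BMP antagonist noggin, had 34, 34 and 43 counts in the WT libraries and 1294, 1464 and 1580 in NUAK2-CR. The same measure, applied to AQP1 after its values were seen, named DLX3, CFAP221, SLC16A4, BEGAIN and TMEM63C, at 0.0956 to 0.126. DLX3 had 0, 2 and 2 counts in NUAK2-CR and CFAP221 0, 2 and 1. Their log2 fold changes were -3.43 and -3.77, against -2.03 for AQP1. The 0.1 added to CPM narrows differences where counts are near 0, as for both genes in NUAK2-CR and for SLC14A1 in WT. SLC16A4, a monocarboxylate transporter family gene, had 453, 392 and 350 counts in the WT libraries and 55, 84 and 89 in NUAK2-CR.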

How the data were processed

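RNA was sequenced from 3 WT and 3 NUAK2-CR libraries of U251 cells, grouped by their labels. The authors used Trimmomatic on the paired-end reads, HISAT2 for alignment (hg38) and featureCounts for counting, each at default settings, and deposited the raw counts per gene. The gene annotation and strand setting are not given in the sources used here, so overlapping genes on opposite strands are uncertain. Identifiers were matched to symbols for 27745 of 28395 genes, and 650 had none. Low counts were mostly even, so the ends of a read pair may have been counted separately.

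The members and lists were chosen with earlier results of these data known. Counts were tested with edgeR 4.0.16 in R 4.3.3 (filterByExpr, TMM, quasi-likelihood F test, default prior count, Benjamini-Hochberg over 14873 genes, threshold 0.05). The procedure was also run on simulated data in which far fewer genes differed than were called here. That run therefore does not cover a contrast with so many calls. SEs were taken from the F statistics. All 8 members were named; from each pathway list, at most 3 called genes per direction with the smallest adjusted p; other aquaporins with any count; called genes among the 5 tested neighbours on each side of SLC14A1; and the 5 genes most like SLC14A1. A floor of 3 counts per library and exact 95% intervals cover counting error only. Gene positions are from RefSeq (GRCh38.p14); the sequences are credited to RefSeq, in which 7 members had an entry and AQP11 had none. Lengths came from GENCODE 44. Alternatives were DESeq2 1.42.0, RLE and library-size scaling, other filters, a prior count of 2, each library left out, a replicate block and counts halved to read pairs, the last chosen after seeing the data. Depth was 29648445 to 55574081 counts per library. The values of 1 listed marker are not reported here.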

Additional observations from a re-analysis of the deposited data

How the results depend on the processing

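The 8107 calls over all genes ranged from 7190 to 8481 under the alternatives. SLC14A1 and AQP1 kept their direction and call under each setting that tested them. As the same libraries chose these genes, that describes the settings and lends the differences no support. Requiring 10 counts or more in all 6 libraries removed SLC14A1, leaving 0 members called higher, because WT has almost no counts. The fold of SLC14A1 ranged from 294.1 (a lower bound) to 633.4 with 1 library left out. Members called lower ranged from 1 to 2 with 1 library left out, since AQP11 lost its call without WT replicate 3, and likewise without replicate 1 or replicate 3 of NUAK2-CR. The log2 fold change of AQP3 ranged from -0.05335 (without NUAK2-CR replicate 2) to 0.252 with 1 library left out. Of the AQP4 partner genes, 2 were called lower with DESeq2 or without the filter and 0 with at least 10 counts in every library, against 1. Urea, arginine and polyamine genes called lower ranged from 8 (counts halved to read pairs) to 10 under the alternatives, against 10. Osmolyte and cell volume genes called lower ranged from 1 to 3 with 1 library left out. For these the cause was not tested, apart from the filters, which change which genes are tested. With a replicate block 8167 genes were called and no call named here on a member changed. Same-numbered libraries correlated at 0.057, -0.0755 and 0.0872 in their deviations from group means, so no pairing by number was seen. With 3 libraries per group, deviations from the mean are mostly noise, and this check cannot exclude pairing. Scaling moved the median log2 fold change of all tested genes by less than 0.1. Depth limits SLC14A2, AQP4, AQP7 and AQP9, which stood at 10 summed counts or fewer per group.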
